A study of Mus musculus with 18 samples.

Results

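Described here are 10 genes for immune-modulating factors of mesenchymal stromal cells (MSCs), picked by symbol with earlier results of these data known, and all found among the 27179 genes in the table of normalized counts. They are 4 genes of prostaglandin synthesis (Ptgs1, Ptgs2, Ptges and Ptgis), the hyaluronan-binding protein TSG-6 (Tnfaip6), 3 galectins (Lgals1, Lgals3 and Lgals9), hepatocyte growth factor (Hgf) and the inducible nitric oxide synthase (Nos2). RNA was sequenced from cultured bone marrow MSCs of C57BL6 mice, with 6 libraries in each of 3 groups. Young MSCs came from mice of 6 weeks, and old MSCs from mice of 18 to 24 months, which were plated at 100000 per well. Rejuvenated old MSCs were the same kind of old cells grown in a shared well with young MSCs, with a 0.4 µm Transwell membrane between both layers. The libraries of all 3 groups are of day 7 of culture. Cultures of old MSCs with a second layer of old MSCs were not analysed here, so the presence of a second layer and its age cannot be told apart. The labels call the replicates biological without saying whether they came from separate animals or cultures, so p-values measure the spread between these libraries.

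MSCs are studied for their ability to restrain immune cells, which they do largely through secreted molecules. Cyclooxygenases turn arachidonic acid into a short-lived intermediate, from which terminal synthases make prostaglandin E, a regulator of macrophages and T cells, or prostacyclin, a vasodilator that restrains platelets. TSG-6 dampens inflammation at hyaluronan-rich matrix, galectins bind sugars on the surface of T cells and other leukocytes, hepatocyte growth factor acts through the receptor Met, and nitric oxide made from arginine stops T cell division in mouse MSC cultures.

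Promoters were read from the RefSeq annotation of GRCm38.p6 for the 7 of 10 genes matched in the promoter table used here, from 250 bases before to 30 bases after the start of transcription. All motifs were searched on both strands, the TATA box as TATAAA. The core of the cAMP response element was searched as TGACG and the E-box as CACGTG. The interferon-stimulated response element (ISRE) was searched as GAAA, any 2 bases and again GAAA, and the NF-kB site by its usual consensus. Of all 32851 windows of this length, 13.1% held TATAAA, 19.9% TGACG, 6.79% CACGTG, 7.94% the NF-kB site and 3.28% the ISRE. The window of Ptgs2 held TGACG on the opposite strand at bases 14 to 18 after the start and CACGTG at bases 17 to 22, which overlap. The window of Lgals9 held the ISRE on the opposite strand at 55 to 46 bases before the start and again at bases 16 to 25 after it. The window of Lgals3 held an NF-kB site from 70 to 61 bases before the start. A match describes letters in the window and was not tested as a site in these cells. Both windows with more than 1 match are shown, because Ptgs2 and Lgals9 differed several-fold between young and old MSCs in opposite directions. Capitals mark the matches.
Ptgs2 promoter, chr1:150099781-150100060, plus strand, GRCm38.p6: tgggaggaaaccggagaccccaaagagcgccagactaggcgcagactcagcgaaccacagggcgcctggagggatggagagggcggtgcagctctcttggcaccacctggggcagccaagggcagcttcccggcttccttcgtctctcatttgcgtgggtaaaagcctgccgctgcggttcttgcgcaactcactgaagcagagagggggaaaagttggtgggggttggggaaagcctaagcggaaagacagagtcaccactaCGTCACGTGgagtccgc
Lgals9 promoter, chr11:78984895-78985174, minus strand, GRCm38.p6: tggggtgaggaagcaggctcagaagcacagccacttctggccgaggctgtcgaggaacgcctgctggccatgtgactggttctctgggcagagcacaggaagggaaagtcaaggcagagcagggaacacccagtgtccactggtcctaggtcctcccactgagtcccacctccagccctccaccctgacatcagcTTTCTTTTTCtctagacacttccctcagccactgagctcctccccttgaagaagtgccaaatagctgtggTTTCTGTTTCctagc

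The deposited values are read counts divided by 1 size factor per library. Whole reads were recovered for 16 of the 18 libraries, which held 22936251 to 29559194 reads on genes. Of all genes, 14353 had a mean of at least 10 normalized counts and entered 1 limma fit of the 3 groups on log2(normalized count + 1). Differences on the log2 scale below are differences of group means from that fit, and adjusted p-values are Benjamini-Hochberg values over all 14353 genes. Of the 10 genes 9 were tested, and Nos2 was under the filter. Rejuvenated old replicate 1 stood apart in Ptgs2, Ptges and Ptgis, and values without it are given for the comparison with old MSCs. In bulk RNA, fewer cells of a type and less RNA per cell cannot be told apart. The defining stromal genes Pdgfra and Pdgfrb were at 3857 normalized counts or more in every library, and of 13 stromal markers 5 were higher and 8 lower in young than in old MSCs. Thy1 was at 198 in young and 1.19 in old MSCs and Nt5e at 295 and 15.9, whereas Eng was at 163 and 7340, Cd44 at 2137 and 2954 and Lepr at 36.2 and 378. The sum of 16 macrophage markers ran from 958 to 1074 normalized counts in young MSCs, 16587 to 20631 in old MSCs and 16632 to 20216 in rejuvenated old MSCs, and Adgre1 and Ptprc were at 0 in all young libraries. The part of this difference in the results between young and old MSCs was not tested.

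Between young and old MSCs, the 9 genes tested all differed. Ptgis, Ptgs2, Tnfaip6, Lgals3, Ptgs1 and Lgals1 were higher in young MSCs, whereas Hgf, Lgals9 and Ptges were higher in old MSCs. In this comparison 85.7% of all genes tested passed the same test, with 41.6% higher and 44.1% lower in young MSCs. The libraries of both groups did not overlap for any of the 9 genes, which held for 73.9% of all genes tested. Between rejuvenated old and old MSCs, 3 of the 9 had a higher level in rejuvenated old MSCs (Ptgis, Lgals3 and Ptgs1), 2 had a lower one (Hgf and Ptges) and 4 did not pass the test (Ptgs2, Tnfaip6, Lgals1 and Lgals9). Of all genes tested 41.6% passed, with 21% higher and 20.6% lower. In 4 of the 9 genes (Ptgis, Lgals3, Ptgs1 and Hgf) these groups did not overlap, against 22% of all genes tested. Between rejuvenated old and young MSCs, 3 genes were higher and 6 lower in rejuvenated old MSCs, where 85.6% of all genes passed the test, 44.1% higher and 41.5% lower. These groups did not overlap in 8 of the 9 genes, all but Ptges, against 70.5% of all genes tested. Both comparisons with old MSCs share the old libraries, and the plot of differences sets their values side by side.

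**Figure D1:**
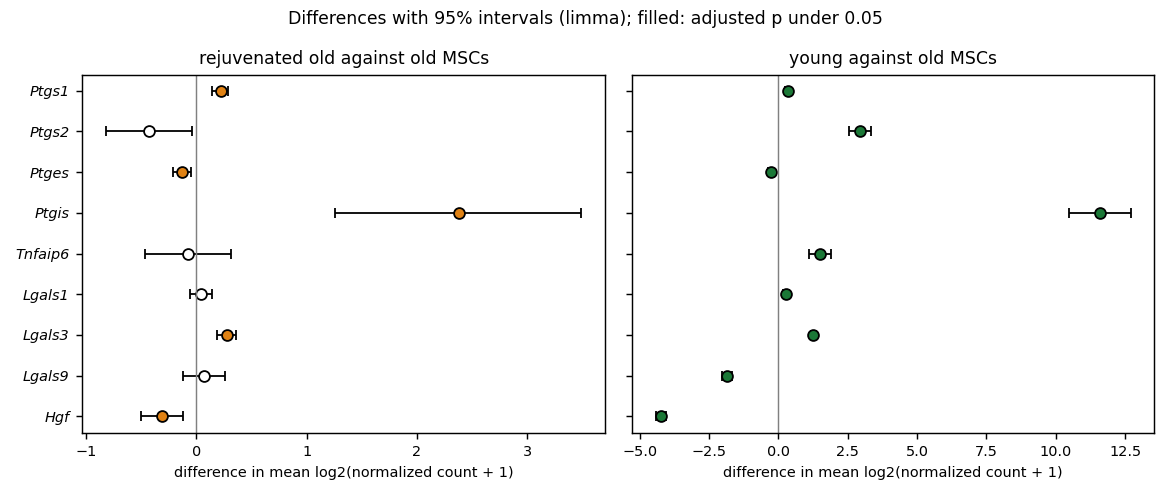
Differences of group means of log2(normalized count + 1) with 95% intervals from limma for the 9 genes tested, for rejuvenated old against old MSCs (left) and young against old MSCs (right), 6 libraries per group. Filled points have an adjusted p under 0.05, and the horizontal scales differ. On the left 5 points are filled, and the interval of Ptgis, from 1.26 to 3.49, is the widest of the 9, whereas on the right all 9 are filled, from -4.24 for Hgf to 11.58 for Ptgis.

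The cyclooxygenases come first in the pathway. Ptgs1 (gene 19224, chr2:36230426-36252272, plus strand, GRCm38) encodes the constitutive enzyme COX-1. Its normalized count ran from 2661 to 2773 in young MSCs (median 2694), from 2060 to 2307 in old MSCs (median 2122) and from 2326 to 2654 in rejuvenated old MSCs (median 2562). All young libraries were above all others, and all rejuvenated old libraries were above all old ones. Means were 2707 ± 50.2 in young MSCs, 2157 ± 89.2 in old MSCs and 2514 ± 143 in rejuvenated old MSCs (SD, n = 6 each). Ptgs1 was thus 1.17-fold higher in rejuvenated old MSCs than in old MSCs (log2 0.22, SE 0.04, limma adjusted p = 3.96e-05), and 1.25-fold higher in young than in old MSCs (log2 0.33, limma adjusted p = 1.4e-08). It was still lower in rejuvenated old than in young MSCs (log2 -0.11, limma adjusted p = 0.0079).

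Ptgs2 (gene 19225, chr1:150100031-150108227, plus strand), whose promoter is shown above, encodes the inducible enzyme COX-2. Of the 4 enzyme genes it was the one most strongly reduced in old MSCs after Ptgis, and its mean was no nearer to the young level in rejuvenated old MSCs. The normalized count ran from 1632.5 to 2107 in young (median 1940.5), from 190 to 377 in old (median 211) and from 134 to 339 in rejuvenated old MSCs (median 161). All young libraries were thus far above the other 12, and 4 of the 6 rejuvenated old libraries were below all old ones. Means were 1893 ± 217, 255 ± 83.3 and 191 ± 75 (SD, n = 6 each), a 7.41-fold higher level in young than in old MSCs (log2 2.93, SE 0.19, limma adjusted p = 9.39e-13). The log2 difference of rejuvenated old against old MSCs, -0.43 with a 95% interval from -0.82 to -0.04, missed the threshold (limma adjusted p = 0.071). Replicate 1 was the library at 339, and the other 5 ran from 134 to 196. Without it the difference was -0.61 and passed (limma adjusted p = 0.00268), and it was -0.50 without old replicate 4 (limma adjusted p = 0.0461). Rejuvenated old MSCs held 9.9-fold less Ptgs2 than young MSCs (log2 -3.36, limma adjusted p = 7.58e-14). The median difference of all genes tested on chromosome 1 between young and old MSCs was -0.69 on the log2 scale, opposite in sign to that of Ptgs2. Over all autosomes this median was -0.03, and on the chromosomes of the other members it was -0.10 to 0.20. The highest, 0.20, was that of chromosome 15, which carries Lgals1, and chromosome 14, which carries Lgals3, was at 0.19. The part of these medians in the single genes was not tested.

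Counted per kb of exon, so that both genes can be set side by side, Ptgs2 made up 37.1% ± 2.87 of the cyclooxygenase transcripts in young MSCs, 9.01% ± 2.34 in old MSCs and 5.98% ± 1.92 in rejuvenated old MSCs (SD, n = 6 each). The shares in young libraries, from 33.3% to 40.2%, were all above the highest of the other groups, 12.6%. The old and rejuvenated old shares overlapped through rejuvenated old replicate 1 alone, at 9.77%. Without it the rejuvenated old shares ran from 4.66% to 6.09%, below the lowest old share, 7.25%. The sum of Ptgs1 and Ptgs2 per kb was 1110 ± 45.5 in young MSCs, 611 ± 39.6 in old MSCs and 689 ± 48.5 in rejuvenated old MSCs. Ptgs1 was therefore the main cyclooxygenase transcript in every group by this measure.

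**Figure D2:**
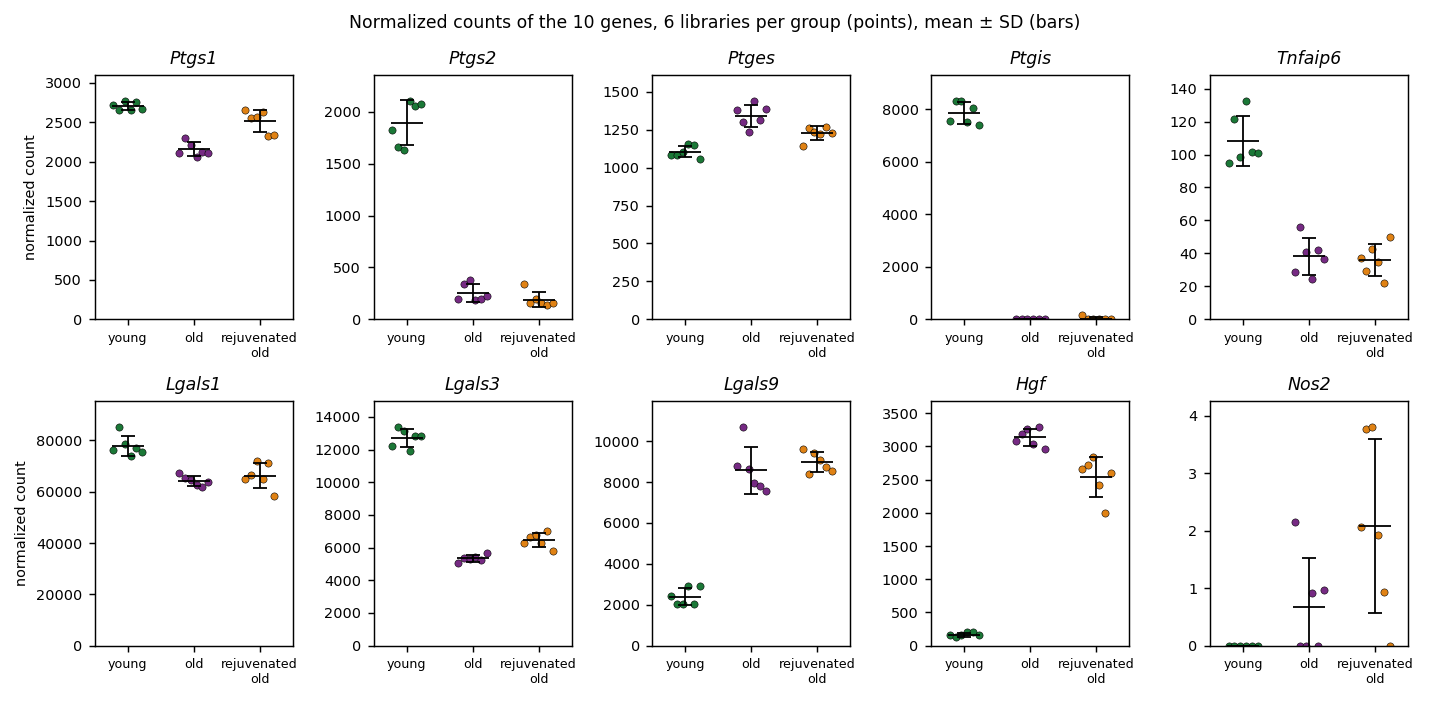
Normalized counts of the 10 genes in each of the 6 young, 6 old and 6 rejuvenated old libraries (points), with the mean and SD of each group (bars), each panel with a linear vertical axis of its own that starts at 0. For Ptgis all 12 old and rejuvenated old points lie near the base of an axis on which the young points are at 7385 or more, and for Hgf the young points, at most 204.5, lie below all others.

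The terminal synthases differed between young and old MSCs in opposite directions. Ptgis (gene 19223, chr2:167191805-167240604, minus strand) encodes prostacyclin synthase. Per kb of exon it was the 3rd highest of the 10 genes in young MSCs, and it was at 0 to 3 reads in every old library. Normalized counts ran from 7385 to 8321 in young MSCs (median 7808), from 0 to 2.89 in old MSCs (median 2.06) and from 5.66 to 159 in rejuvenated old MSCs (median 7.19). All rejuvenated old libraries were above all old ones, and replicate 1 was far above the other 5, which were at 9.44 or less. Over the libraries with recovered reads, the normalized ratio of rejuvenated old to old MSCs was 14 (192 against 11 reads, exact 95% interval 7.65 to 28.5), and without replicate 1 it was 3.28 (38 against 11 reads, 1.64 to 7.12). The intervals cover counting error only. The fitted log2 difference was 2.38 (SE 0.54, limma adjusted p = 0.0011), and 1.66 without replicate 1 (limma adjusted p = 1.16e-05). The mean that let Ptgis into the fit came mainly from young MSCs, whose libraries also enter its estimate of spread. These p-values are therefore no measure of the spread at a few reads per library. With only the 2 groups compared in the fit, limma adjusted p was 0.00654. Young MSCs held 3536 times the Ptgis of old MSCs by reads (36547 against 11, exact 95% interval 1976 to 7084), and limma gave a difference of 11.58 on the log2 scale (adjusted p = 2.27e-15). The fitted values depend on the pseudocount, and with 10 in place of 1 they were 1.09 and 9.38, while edgeR gave 3.74 and 11.72. Rejuvenated old MSCs held 0.00396 of the young level by reads, and 0.000928 without replicate 1. The fitted differences, a separate measure, were -9.20 and -9.92 without replicate 1 (limma adjusted p = 1.83e-13 and 3.64e-20).

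Ptgis was not alone in standing apart in rejuvenated old replicate 1. Of the other genes, 57 had at most 3 reads in every old library and a mean of at least 100 normalized counts in young MSCs, a criterion chosen after the values were seen. Their median level was 2.88% of the young mean in rejuvenated old replicate 1 and 0% to 0.0956% in the other 5 rejuvenated old libraries. Ptgis was at 2.02% of the young mean in replicate 1 and at 0.072% to 0.12% in the other 5. The part of these shared levels in the Ptgis result was not tested.

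Ptges (gene 64292, chr2:30889471-30929863, minus strand) encodes the inducible prostaglandin E synthase that works with COX-2. Its normalized count ran from 1057.5 to 1155 in young (median 1094), from 1234.5 to 1440 in old (median 1346) and from 1143 to 1269 in rejuvenated old MSCs (median 1231). Old libraries were all above young ones, and the rejuvenated old libraries overlapped with both groups. The means were 1105 ± 38.4, 1341 ± 73.7 and 1226 ± 45 (SD, n = 6 each). Ptges was lower in rejuvenated old MSCs than in old MSCs by 0.13 on the log2 scale (SE 0.04, limma adjusted p = 0.0106). Without rejuvenated old replicate 1, the library at 1143, the log2 difference was -0.11 (limma adjusted p = 0.0296). Ptges was higher in old than in young MSCs (log2 of young against old -0.28, limma adjusted p = 6.25e-07). Rejuvenated old MSCs were 0.15 above young MSCs on the log2 scale (limma adjusted p = 0.00113), a difference of 0.06 that missed the threshold when the libraries were scaled to the same total (limma adjusted p = 0.15).

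Around these 4 enzymes, 21 other genes of arachidonic acid supply and prostanoid synthesis were listed, of which 16 were tested. In young against old MSCs 7 were higher and 9 lower, and in rejuvenated old against old MSCs 3 were higher and 2 lower. The medians of their differences were -0.20 and -0.01, and those of all genes tested were -0.02 and 0.01. The counts of this and the following lists stand beside the shares of all genes given above, 41.6% higher and 44.1% lower in young against old MSCs and 21% higher and 20.6% lower in rejuvenated old against old MSCs. Pla2g4a, the cytosolic phospholipase that releases arachidonic acid, was at 2657 ± 135 normalized counts in young MSCs, 1058 ± 46.2 in old MSCs and 982 ± 118 in rejuvenated old MSCs. It was higher in young than in old MSCs (log2 1.33, limma adjusted p = 3.24e-15), and its difference between rejuvenated old and old MSCs of -0.12 did not pass (limma adjusted p = 0.148). Ptgds, the lipocalin-type prostaglandin D synthase, was at 62.1 ± 9.98 in young MSCs and below 1 on average in both other groups. The haematopoietic prostaglandin D synthase Hpgds and the thromboxane synthase Tbxas1 had the opposite pattern, with Hpgds at 0.516 in young MSCs, 137 in old MSCs and 128.5 in rejuvenated old MSCs, and Tbxas1 at 3.38, 80.3 and 68.5. The last 2 genes are also expressed by macrophages, whose markers differed in the same direction between young and old MSCs as given above, and their part was not tested. Between rejuvenated old and old MSCs, the phospholipase genes Pla2g12a (log2 0.31, limma adjusted p = 8.09e-05) and Pla2g15 (log2 -0.31, limma adjusted p = 1.07e-05) and the prostaglandin E synthase Ptges2 (log2 -0.29, limma adjusted p = 0.000307) differed most among the genes of the list that passed.

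Of 10 genes listed for prostaglandin receptors, the receptor-associated Ptgfrn among them, 7 were tested, with 2 higher and 4 lower in young than in old MSCs. Ptger2, a receptor for prostaglandin E, was at 50 ± 9.59 normalized counts in young and 4.15 ± 3.79 in old MSCs (log2 3.65, limma adjusted p = 1.63e-08). The thromboxane receptor Tbxa2r was at 12.4 ± 1.45 in young MSCs, 850 ± 53.4 in old MSCs and 1063 ± 66.3 in rejuvenated old MSCs, and the prostaglandin F receptor Ptgfr at 156 ± 13.7, 907 ± 35.6 and 803 ± 62.7. In rejuvenated old against old MSCs, Tbxa2r was the 1 gene that was higher (log2 0.32, limma adjusted p = 0.00105), and Ptgfrn (log2 -0.37), Ptger4 (log2 -0.29) and Ptgfr (log2 -0.18) were lower. Of 6 genes of prostaglandin transport and breakdown tested, 3 were lower in rejuvenated old MSCs than in old MSCs and 0 were higher by limma at the adjusted threshold, where 20.6% of all genes were lower and 21% higher. In young against old MSCs 2 of the 6 were higher and 4 lower, with the largest differences in Cbr3 (log2 -2.06), Ptgr2 (log2 -1.63) and Akr1c18 (log2 1.45). The 3 genes that passed in rejuvenated old against old MSCs were Akr1c18 (log2 -1.27), Abcc4 (log2 -0.64) and Slco2a1 (log2 -0.32). Akr1c18 reduces steroids and prostaglandins, Abcc4 is an efflux pump and Slco2a1 is an uptake carrier. Hpgd, the main prostaglandin-degrading enzyme, was too low to be tested, at 0.166 normalized counts in young MSCs, 6.43 in old MSCs and 8.68 in rejuvenated old MSCs.

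Tnfaip6 (gene 21930, chr2:52038009-52056686, plus strand) encodes TSG-6. Its normalized count ran from 94.7 to 133 in young (median 101), from 24.5 to 56.1 in old (median 38.8) and from 22.4 to 50 in rejuvenated old MSCs (median 35.9). The young libraries were above all others, and the other groups overlapped, with 1 rejuvenated old library below all old ones. Means were 108 ± 15.2, 38.2 ± 11.1 and 36 ± 9.76 (SD, n = 6 each), and Tnfaip6 was 2.83-fold higher in young than in old MSCs (log2 1.51, SE 0.19, limma adjusted p = 1.09e-07). Rejuvenated old and old MSCs differed by -0.08 on the log2 scale with a 95% interval from -0.47 to 0.31 (limma adjusted p = 0.774), and its sign turned when old replicate 2 or rejuvenated old replicate 5 was left out (0.04 and 0.05). Tnfaip6 was lower in rejuvenated old than in young MSCs (log2 -1.59, limma adjusted p = 5.03e-08).

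Of 11 genes for partners of TSG-6 in the hyaluronan matrix, 8 were tested, and in rejuvenated old against old MSCs 2 were higher and 2 lower. Ptx3, a pentraxin that TSG-6 binds, was at 664 ± 58.7 normalized counts in young MSCs, 4363 ± 80.5 in old MSCs and 15910 ± 2811 in rejuvenated old MSCs. It was higher in rejuvenated old MSCs than in old MSCs (log2 1.85, SE 0.08, limma adjusted p = 9.87e-14) and lower in young than in old MSCs (log2 -2.72, limma adjusted p = 7.93e-19). Itih5, of the family of inter-alpha-trypsin inhibitor heavy chains, had the same order of means, at 16 ± 4.62, 78.7 ± 5.41 and 167 ± 20. The hyaluronan synthases differed in opposite directions, with Has2 lower (log2 -4.00) and Has1 higher (log2 3.53) in young than in old MSCs. Has2 was at 47.5 normalized counts in young and 748 in old MSCs, and Has1 at 79.4 and 6.17. The hyaluronan receptor Cd44 was lower in rejuvenated old MSCs than in old MSCs (log2 -0.30, limma adjusted p = 0.000176).

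Per kb of exon, a galectin was the most abundant transcript of the 10 genes in every group. Lgals1 (gene 16852, chr15:78926725-78930465, plus strand) encodes galectin-1, a lectin known to restrain activated T cells. Its normalized count ran from 74014 to 85202 in young (median 76776), from 61930 to 67176 in old (median 64143) and from 58307 to 72068 in rejuvenated old MSCs (median 65724). Only the young libraries were apart from the others, and both other groups overlapped. Lgals1 was 1.21-fold higher in young than in old MSCs, at 77807 ± 3957 against 64262 ± 1898 (log2 0.27, limma adjusted p = 1.14e-05). The difference between rejuvenated old MSCs, at 66308 ± 4968, and old MSCs was 0.04 with a 95% interval from -0.06 to 0.14 (limma adjusted p = 0.505).

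Lgals3 (gene 16854, chr14:47367751-47386160, plus strand) encodes galectin-3, a lectin of macrophages and many other cells. It ran from 11940 to 13378 normalized counts in young (median 12833), from 5029 to 5681 in old (median 5328) and from 5824 to 7048 in rejuvenated old MSCs (median 6483). The 3 groups did not overlap, with young highest and old lowest. Means were 12718 ± 549, 5344 ± 217 and 6486 ± 437 (SD, n = 6 each). Lgals3 was 1.21-fold higher in rejuvenated old MSCs than in old MSCs (log2 0.28, SE 0.04, limma adjusted p = 1.15e-05) and 2.38-fold higher in young than in old MSCs (log2 1.25, SE 0.04, limma adjusted p = 3.33e-18). It was lower in rejuvenated old than in young MSCs (log2 -0.97, limma adjusted p = 4.15e-16). The summed macrophage markers given above differed in the opposite direction from Lgals3, with the higher level in old MSCs. Between rejuvenated old and old MSCs 1 of 15 macrophage markers tested was higher and 1 lower. The part of macrophage transcripts in the level of Lgals3 was not tested.

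Lgals9 (gene 16859, chr11:78962974-78984946, minus strand), the promoter of which is shown above, encodes galectin-9, a ligand of T cell checkpoint receptors. It was the 1 of these 3 galectins that was higher in old MSCs. It ran from 2034 to 2922.5 normalized counts in young (median 2244), from 7561 to 10689 in old (median 8295) and from 8401 to 9611 in rejuvenated old MSCs (median 8921). The young libraries were below all others, while old and rejuvenated old libraries overlapped. Means were 2398 ± 432, 8573 ± 1144 and 8965 ± 486.5 (SD, n = 6 each), 3.57-fold higher in old than in young MSCs (log2 of young against old -1.85, SE 0.09, limma adjusted p = 7.96e-15). Rejuvenated old and old MSCs differed by 0.07 with a 95% interval from -0.12 to 0.26 (limma adjusted p = 0.562). Galectin-9 is also made by macrophages, and the macrophage marker Lyz2 was at 173 normalized counts in young MSCs, 10154 in old MSCs and 9769 in rejuvenated old MSCs. The part of macrophage transcripts in the level of Lgals9 was not tested.

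Per kb of exon, Lgals1 made up 91.5% of the transcripts of these 3 galectins in young MSCs, 91.2% in old MSCs and 90.5% in rejuvenated old MSCs. The remainder differed in makeup, with Lgals3 at 7.27% ± 0.202 in young MSCs, 3.69% ± 0.221 in old MSCs and 4.3% ± 0.101 in rejuvenated old MSCs. Lgals9 was at 1.2% ± 0.256, 5.13% ± 0.572 and 5.19% ± 0.379 (SD, n = 6 each). Lgals3 was thus above Lgals9 in young MSCs and below it in both groups of old MSCs. Of the other genes listed with the galectins, Lgals3bp among them, 5 were tested. In rejuvenated old against old MSCs 2 were higher, Lgals4 (log2 0.46, limma adjusted p = 0.00251) and Lgalsl (log2 0.16, limma adjusted p = 0.00223). Lower were 2, Lgals2 (log2 -0.74, limma adjusted p = 0.000742) and Lgals8 (log2 -0.27, limma adjusted p = 0.000914). Lgals3bp, a secreted glycoprotein that binds galectin-3, was at 1853 ± 485 normalized counts in young MSCs, 6671 ± 1450 in old MSCs and 6012 ± 1090 in rejuvenated old MSCs, and was lower in young than in old MSCs (log2 -1.86, limma adjusted p = 3.8e-11).

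**Figure D3:**
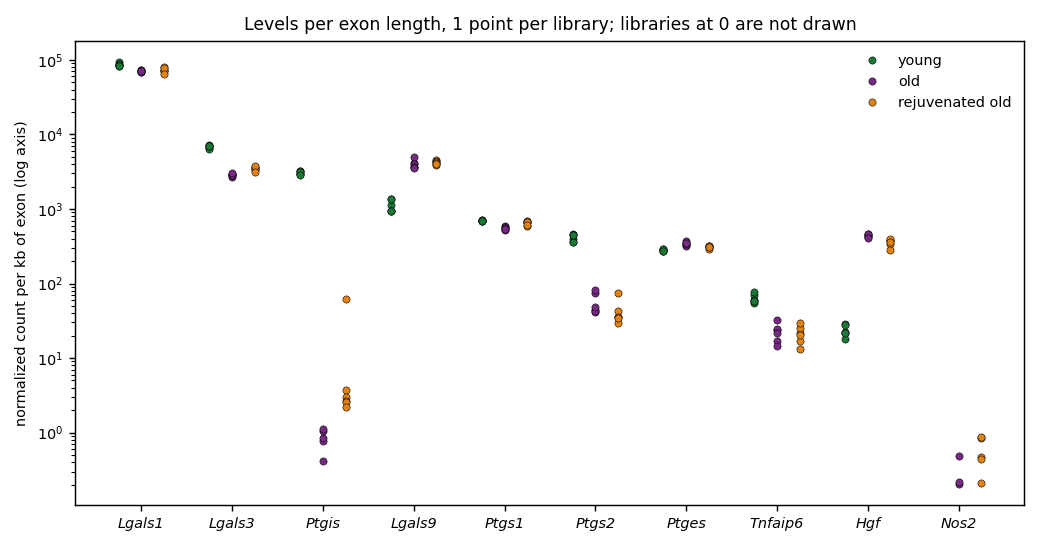
Normalized count per kb of exon for each library (points, log axis) of the 10 genes, ordered by their level in young MSCs, with libraries at 0 not drawn. Ptgis is the 3rd highest of the 10 genes in young MSCs and next to last in old MSCs, Lgals9 is above Lgals3 in old but not in young MSCs, and Hgf is next to last in young MSCs.

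Hgf (gene 15234, chr5:16553495-16620152, plus strand) encodes hepatocyte growth factor, which promotes growth and movement of epithelial and endothelial cells and turns dendritic and T cells toward tolerance. Among the 10 genes it showed the largest difference between young and old MSCs with the higher level in old MSCs. Its normalized count ran from 127.5 to 204.5 in young (median 158), from 2957 to 3290.5 in old (median 3128) and from 1993 to 2847 in rejuvenated old MSCs (median 2631). The 3 groups did not overlap, with young lowest and old highest. Means were 167 ± 29.8 in young MSCs, 3135 ± 133 in old MSCs and 2540 ± 302 in rejuvenated old MSCs (SD, n = 6 each), 18.8-fold higher in old than in young MSCs (log2 of young against old -4.24, SE 0.09, limma adjusted p = 1.37e-21). Hgf was lower in rejuvenated old MSCs than in old MSCs (log2 -0.31, SE 0.09, 95% interval -0.50 to -0.12, limma adjusted p = 0.00944) and 15.2-fold higher in rejuvenated old than in young MSCs (log2 3.93, limma adjusted p = 6.03e-21).

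All 12 genes listed for the activation and reception of hepatocyte growth factor were tested, and 5 were higher and 5 lower in young than in old MSCs. Its receptor gene Met was at 2324 ± 71.7 normalized counts in young MSCs, 1735 ± 77.9 in old MSCs and 1375 ± 118 in rejuvenated old MSCs. Met was higher in young than in old MSCs (log2 0.42, limma adjusted p = 1.28e-08) and lower in rejuvenated old MSCs than in old MSCs (log2 -0.34, limma adjusted p = 3.62e-06). Plau, the urokinase that can activate the growth factor, was at 2530 ± 106 in young MSCs, 674 ± 22.9 in old MSCs and 888.5 ± 45.9 in rejuvenated old MSCs, higher in rejuvenated old MSCs than in old MSCs (log2 0.40, limma adjusted p = 3.89e-08). The inhibitors of activating proteases differed in opposite directions, with Spint1 lower (log2 -4.80) and Spint2 higher (log2 4.58) in young than in old MSCs. The protease gene St14 was lower in young MSCs (log2 -2.85). Spint1 was at 0.67 normalized counts in young and 38.8 in old MSCs, Spint2 at 72.1 and 2.61 and St14 at 2.07 and 20.7. Each was near 0 in its lower group, so that these differences depend on the pseudocount. In rejuvenated old against old MSCs 2 of the 12 genes were higher and 4 lower, among them the semaphorin receptor Plxnb1 (log2 -0.29).

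Nos2 (gene 18126, chr11:78920787-78960254, plus strand), which lies beside Lgals9 on the opposite strand, encodes the inducible nitric oxide synthase. At this depth it was at the limit of detection in all groups. It was at 0 reads in all young libraries, at 0 to 2.15 normalized counts in old MSCs (median 0.454) and at 0 to 3.81 in rejuvenated old MSCs (median 2), with at most 4 reads in a library. Reads were thus found in 3 of 6 old and 5 of 6 rejuvenated old libraries, and the groups overlapped at 0. In two-sided exact permutation tests of these libraries, p was 0.123 between rejuvenated old and old MSCs, 0.182 between young and old MSCs and 0.0152 between rejuvenated old and young MSCs (adjusted over the 3 comparisons 0.182, 0.182 and 0.0456). No fold is given for values this low.

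Of 19 other genes of nitric oxide and arginine metabolism 13 were tested. In young against old MSCs 9 were higher and 4 lower, and in rejuvenated old against old MSCs 5 were higher and 6 lower. Gch1, which makes the cofactor of nitric oxide synthases, was at 342 ± 16.8 normalized counts in young MSCs, 33.9 ± 6.5 in old MSCs and 17.9 ± 6.5 in rejuvenated old MSCs (log2 of rejuvenated old against old -0.93, limma adjusted p = 0.00023). Its feedback regulator Gchfr was lower in rejuvenated old MSCs than in old MSCs as well (log2 -0.75, limma adjusted p = 0.000611). Ass1, which helps to regenerate arginine, was at 112 ± 30.3, 1577 ± 23.3 and 1030 ± 58.9, also lower in rejuvenated old MSCs than in old MSCs (log2 -0.62, limma adjusted p = 6.86e-05).

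A list of 22 other immune regulators of stromal cells, 16 of them tested, had 2 genes higher and 11 lower in young than in old MSCs, with a median difference of -0.49 beside -0.02 over all genes tested. Of all genes tested 41.6% were higher and 44.1% lower in young MSCs, and of the 15 macrophage markers tested 1 was higher and 14 lower, the part of which in this count was not tested. The 2 that were higher in young MSCs were Cd200 (log2 5.07), a ligand that restrains myeloid cells, and Nt5e (log2 4.15), the adenosine-making enzyme CD73. Cd200 was at 84.2 normalized counts in young and 1.89 in old MSCs, so that its difference depends on the pseudocount. Angpt1, a vessel-stabilising factor, was lowest in young relative to old MSCs (log2 -5.12). In rejuvenated old against old MSCs 6 were higher and 5 lower. Stc1, a secreted glycoprotein that dampens macrophages, was at 182 ± 23 normalized counts in young MSCs, 703 ± 24.6 in old MSCs and 1685 ± 163 in rejuvenated old MSCs (log2 of rejuvenated old against old 1.26, limma adjusted p = 4.93e-12). The cytokine gene Il6 was low, at 14.6 ± 8 in old and 30.5 ± 9.7 in rejuvenated old MSCs (log2 1.08, limma adjusted p = 0.00415), and Il1rn, the interleukin-1 receptor antagonist, was lower in rejuvenated old MSCs than in old MSCs (log2 -0.89, limma adjusted p = 1.92e-11).

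**Figure D4:**
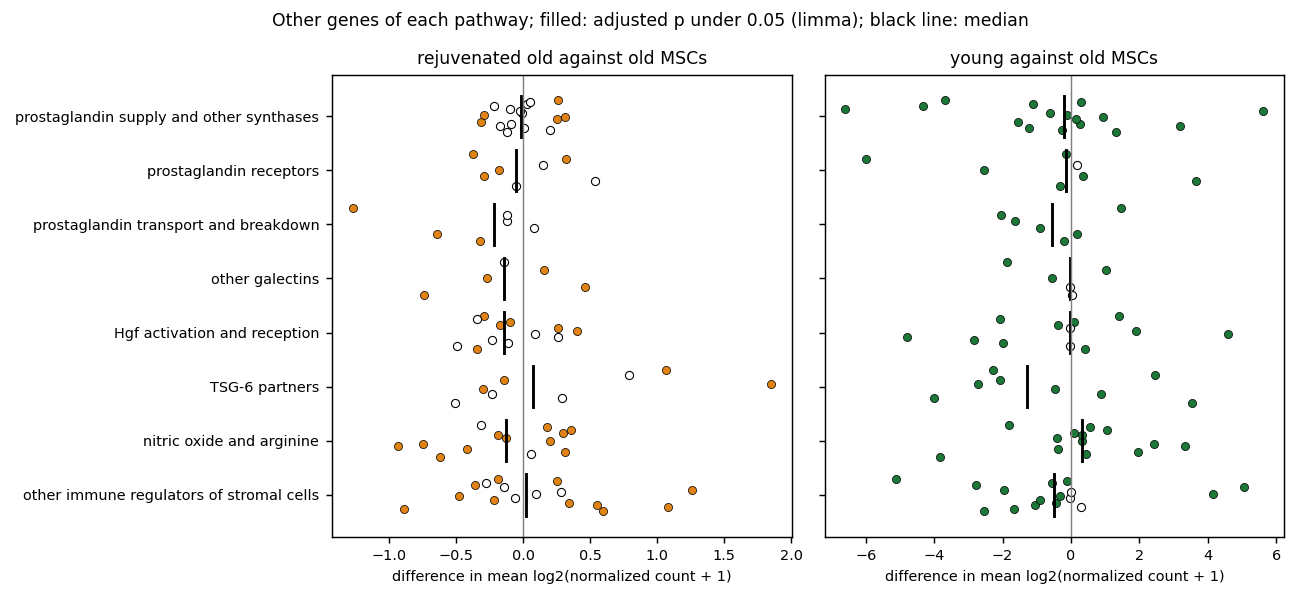
Differences of group means of log2(normalized count + 1) for each tested gene of 8 lists of related genes (points), for rejuvenated old against old MSCs (left) and young against old MSCs (right). Filled points have a limma adjusted p under 0.05, black lines mark the median of each list, and the horizontal scales differ. The point farthest to the right on the left side is Ptx3 at 1.85.

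The order of the 10 genes by normalized count per kb of exon differed between groups. In young MSCs it ran from Lgals1 (86165) over Lgals3 (6845), Ptgis (3060), Lgals9 (1122), Ptgs1 (697), Ptgs2 (413), Ptges (281), Tnfaip6 (63.3) and Hgf (23.2) to Nos2, and no neighbours in this order overlapped. In old MSCs Lgals1 (71165) was followed by Lgals9 (4012), Lgals3 (2876), Ptgs1 (555), Hgf (436), Ptges (341), Ptgs2 (55.8) and Tnfaip6 (22.4), with Ptgis (0.702) and Nos2 (0.152) overlapping at the end. Hgf thus stood next to last in young MSCs and 5th in old MSCs. In rejuvenated old MSCs the order of the means was that of old MSCs, with overlap between Hgf (353) and Ptges (312) and between Tnfaip6 (21.1) and Ptgis (12.6). The place of Ptgis rested on replicate 1 (61.8), since its other 5 libraries were at 2.21 to 3.68, below the lowest Tnfaip6 library (13.1).

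The likeness of genes was measured by the correlation of their log2 values over the 18 libraries after each group mean was subtracted, among genes with a mean of at least 50. The libraries share their preparation and scaling, so that r is given as a description. The genes most like Lgals9 were Tap1 (r = 0.96), which carries peptides for antigen presentation, Ly6e (r = 0.95), a surface protein, and Trafd1 (r = 0.93), a zinc finger protein. In young MSCs, Lgals9 was at 2910 or more in replicates 4 and 6 and at 2448.5 or less in the others, and Tap1 was at 1892 or more in the same 2 libraries and at 1526 or less in the others. In old MSCs replicate 2 was highest in both, at 10689 for Lgals9 and 4921 for Tap1. The promoter windows of Tap1 (1 window) and Trafd1 (2 windows) held 0 matches to the ISRE, and no window was matched for Ly6e. Since 3.28% of all windows held the ISRE, so few windows cannot tell whether these genes differ from Lgals9 in it. Without rejuvenated old replicate 1, r with Tap1 was 0.97 over 17 libraries.

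**Figure D5:**
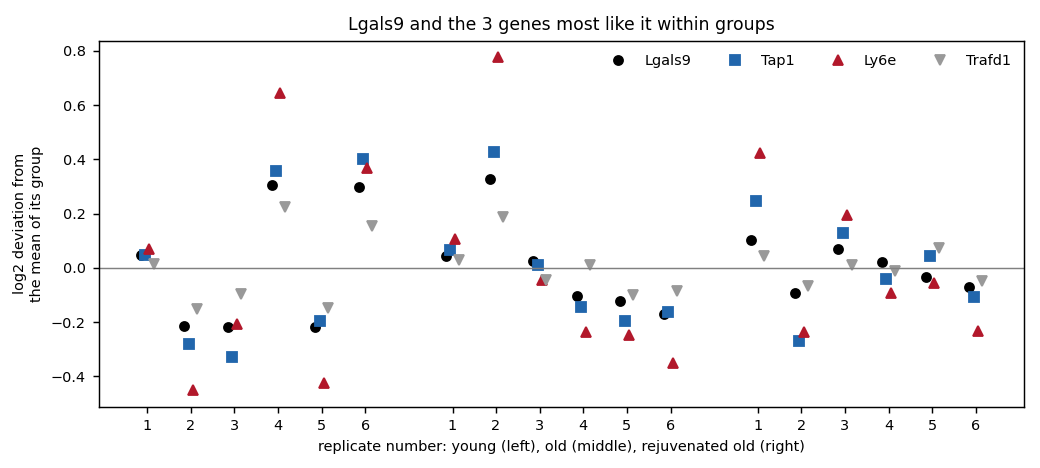
Deviation of Lgals9, Tap1, Ly6e and Trafd1 from the mean of their group, as log2(normalized count + 1), in each of the 18 libraries (replicates 1 to 6 of young, old and rejuvenated old MSCs; numbers do not order the libraries). The 4 genes are high together in young replicates 4 and 6 and old replicate 2, where Lgals9 is 0.304, 0.298 and 0.328 above its group mean.

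For Ptgs2 the genes most like it were Usp1 (r = 0.93), Larp1 (r = 0.90) and Usp31 (r = 0.90), for Ptgs1 Sgcb and Eif4e (both r = 0.89), for Lgals1 the ribosomal gene Rpsa (r = 0.91) and the elongation factor gene Eef1d (r = 0.90), and for Lgals3 Uqcrq (r = 0.90). The genes most like Ptgis were Cd34 and Prex2 (both r = 0.92) and Sema3f (r = 0.91), and without rejuvenated old replicate 1 these r were 0.31, 0.42 and 0.77. Among the 9 genes themselves, Lgals1 went with Lgals3 (r = 0.70, and 0.70 without rejuvenated old replicate 1) and Ptgs1 with Ptgs2 (r = 0.68, and 0.62). Ptgs2 went with Ptgis at r = 0.68, and at 0.27 without that library, and Ptgs2 and Ptges went opposite ways (r = -0.68, and -0.57 without it).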

How the data were processed

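RNA of 18 libraries of mouse bone marrow MSCs, 6 per group by the labels, was analysed. The authors aligned reads to mm10 with HISAT2, used StringTie and featureCounts for counting, and normalized the counts with DESeq2. Versions, annotation and strand setting are not given in the sources used here. The deposited signal per gene is the read count divided by 1 size factor per library. All values of the 16 libraries with a step other than about 1 were whole multiples of it (100% within 0.001 of a read), which gave 22936251 to 29559194 reads. The remaining 2 libraries, young replicate 2 and old replicate 5, were left out of count tests only.

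The members and gene lists were chosen with earlier results of these data known. log2(normalized count + 1) was tested with limma 3.58.1 in R 4.3.3, with a mean per group and a prior variance following the mean, over 14353 genes with a mean of at least 10. Genes with a Benjamini-Hochberg adjusted p under 0.05 were called. Nos2, under the filter, was tested by exact permutation in Python 3.11.15. Named were the 10 members and, in each list, up to 3 genes per comparison with the largest difference among those called, together with Pla2g4a, Ptger4, Hpgd, Met and Cd44. The 5 lists of cell type markers are summed normalized counts, of which the stromal sum was 388113, 558602.5 and 572771 in young, old and rejuvenated old MSCs, the endothelial sum 151, 35 and 27.9, the megakaryocyte sum 1038, 805 and 1005 and the neutrophil sum 43.4, 231 and 149.5. Single genes weigh heavily in them. In the same order of groups, the stromal Cxcl12 was at 9227, 197374 and 238458, although 5 of 13 stromal markers were higher in young than in old MSCs. The neutrophil Camp was at 35, 227 and 147, and 6 of 7 neutrophil markers had a mean under 10 in every group. The megakaryocyte Itga2b was at 917.5, 285 and 257 and Pf4 at 0, 103 and 232. Exon lengths and positions came from GENCODE M21 (GRCm38) and promoters from RefSeq. edgeR 4.0.16 and DESeq2 1.42.0 were run on the recovered reads of 16 libraries as alternatives, beside other pseudocounts, filters, scalings and fits. The tests were tried on simulated data.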

Additional observations from a re-analysis of the deposited data

Results flagged for a closer look

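In 29 groups of 6 libraries examined for the members, chance places about 1 in 20 beyond Dixon's critical value for a single library far from the others. It was passed in 3, and the same library, rejuvenated old replicate 1, was the outlying one in each. It had 339 normalized counts of Ptgs2, where the other 5 had 134 to 196, and 159 of Ptgis, where they had 5.66 to 9.44. It had 1143 of Ptges, the lowest of the group.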

How the results depend on the processing

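In rejuvenated old against old MSCs 5 members passed the test, and 4 to 6 did so under the alternatives. In young against old MSCs 9 passed (8 or 9 under the alternatives), and in rejuvenated old against young MSCs 9 (8 to 10). Of 837 recomputed values, 482 of the leave-one-out values and 347 of the others kept their direction and side of the threshold. The exceptions for single genes were Tnfaip6 in rejuvenated old against old MSCs, which ran from -0.19 to 0.05 when 1 library was left out, at 0.04 without old replicate 2 (limma adjusted p = 0.887) and 0.05 without rejuvenated old replicate 5 (0.866), Ptgs2, which passed without old replicate 4 or rejuvenated old replicate 1 (-0.50 and -0.61), Ptges in rejuvenated old against young MSCs with the same total (0.06), and Ptgis, for which DESeq2 gave log2 differences of 3.89, 11.82 and -7.92 with no p-value. The cause of these was not tested. With the replicate number as a block, 5, 9 and 9 members passed, and 5769, 12219 and 12210 of all genes against 5971, 12297 and 12288 without the block, for rejuvenated old against old, young against old and rejuvenated old against young MSCs. Same-numbered libraries correlated at -0.152 to 0.074 in the first comparison, and 1 of 6 correlated best with its own number. The correlations thus showed no pairing by number, but they cannot exclude shared animals or cultures with little effect on them. The count tests called 5837 (edgeR) and 5967 (DESeq2) genes in that comparison. Depth limits Nos2, and old MSCs for Ptgis, to a few reads per library.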
